A study of Callithrix jacchus with 3 samples.

Results

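Genes of the insulin, PI3K, mTOR and AMPK signalling pathways were examined in EPSC-like cells of the common marmoset (Callithrix jacchus) (EPSC, extended pluripotent stem cell). The members were a list of 51 genes chosen by name. Of these, 41 could be matched to one of the 30811 gene IDs counted in each library. The 10 genes without a matching ID, IRS2, IGFBP3, IGFBP5, TSC2, RHEB, RRAGC, LAMTOR1, FLCN, STK11 and PRKAB2, are not analysed here. The RNA sequencing data hold 3 libraries of a single group, which the labels call extended pluripotent stem cells and the design text EPSC-like cells. The study's title describes attempts to derive such cells from marmoset embryonic stem cells. No treatment, culture medium, sex or age is given in the labels, and there is no group of parental or control cells. The titles of the 3 samples share the tag No40, which the labels do not explain, and differ only in the replicate number, and no label says whether they came from separate cultures, so p-values against 1 CPM rest on the variation between these libraries, which may be technical, and those for pairs of libraries rest on counting error.

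Insulin and the insulin-like growth factors bind receptor tyrosine kinases, which act through adaptor proteins on phosphoinositide 3-kinase (PI3K). The lipid that PI3K makes recruits the kinases PDK1 and AKT to the membrane, and AKT relieves the brake that the TSC complex puts on RHEB and the kinase mTOR. mTOR complex 1 also needs amino acids, which are sensed at the lysosome by the Rag GTPases and their regulators, while AMPK, which is activated by the kinase LKB1, restrains it when energy is low. In pluripotent cells these pathways are known for supporting survival, protein synthesis and growth.

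Total counts were 52327369, 55224475 and 40593244 in replicates 1, 2 and 3, so replicate 3 had the fewest, and 23432 genes had at least 1 count. Levels are given in CPM, counts per 1000000 counts after TMM scaling of the library totals. CPM does not correct for gene length, and transcript lengths were not available for the counted genes, so levels are compared between libraries and not between genes. Of the pluripotency markers, POU5F1, SOX2, NANOG and LIN28B were all called above 1 CPM, with a summed level of 2243 to 2337 CPM in the 3 libraries. LIN28B was lower in replicate 3 than in both others, at 742, 774 and 470 CPM in order, while POU5F1 stood at 974, 972 and 1185 CPM. These genes do not tell extended from conventional pluripotent stem cells. Replicate 3 stood apart from replicates 1 and 2. Only 291 of the 23432 genes differed by at least 1.5-fold between replicates 1 and 2 in a test of their counts, against 3949 between replicates 1 and 3 and 4110 between replicates 2 and 3.

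Nearly all matched members were called above 1 CPM. The list was chosen with earlier results of these data known, so its shares below describe it and do not test the pathway. Of the 41 matched members, 39 were called above 1 CPM, INPP4B was not distinguished from that level and PIK3CG had no counts. Of the 40 members with counts, that is 97.5%, against 56% of all 23432 genes tested and 78.3% of the 12174 tested genes that have a symbol. None was called below 1 CPM, as 37.8% of all genes tested were. The test was the edgeR quasi-likelihood F statistic against 1 CPM with Benjamini-Hochberg adjustment over all genes tested, and the least clear of the 39 calls, that of PRKAA2, had an adjusted p of 8.71e-05. The median level of the 40 members was 4.96 on the log2 CPM scale, beside 1.70 for all genes tested and 4.12 for those with a symbol. In fits without replicate 3 the same count of 39 members was above 1 CPM. The plot of levels by library shows each member.

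**Figure D1:**
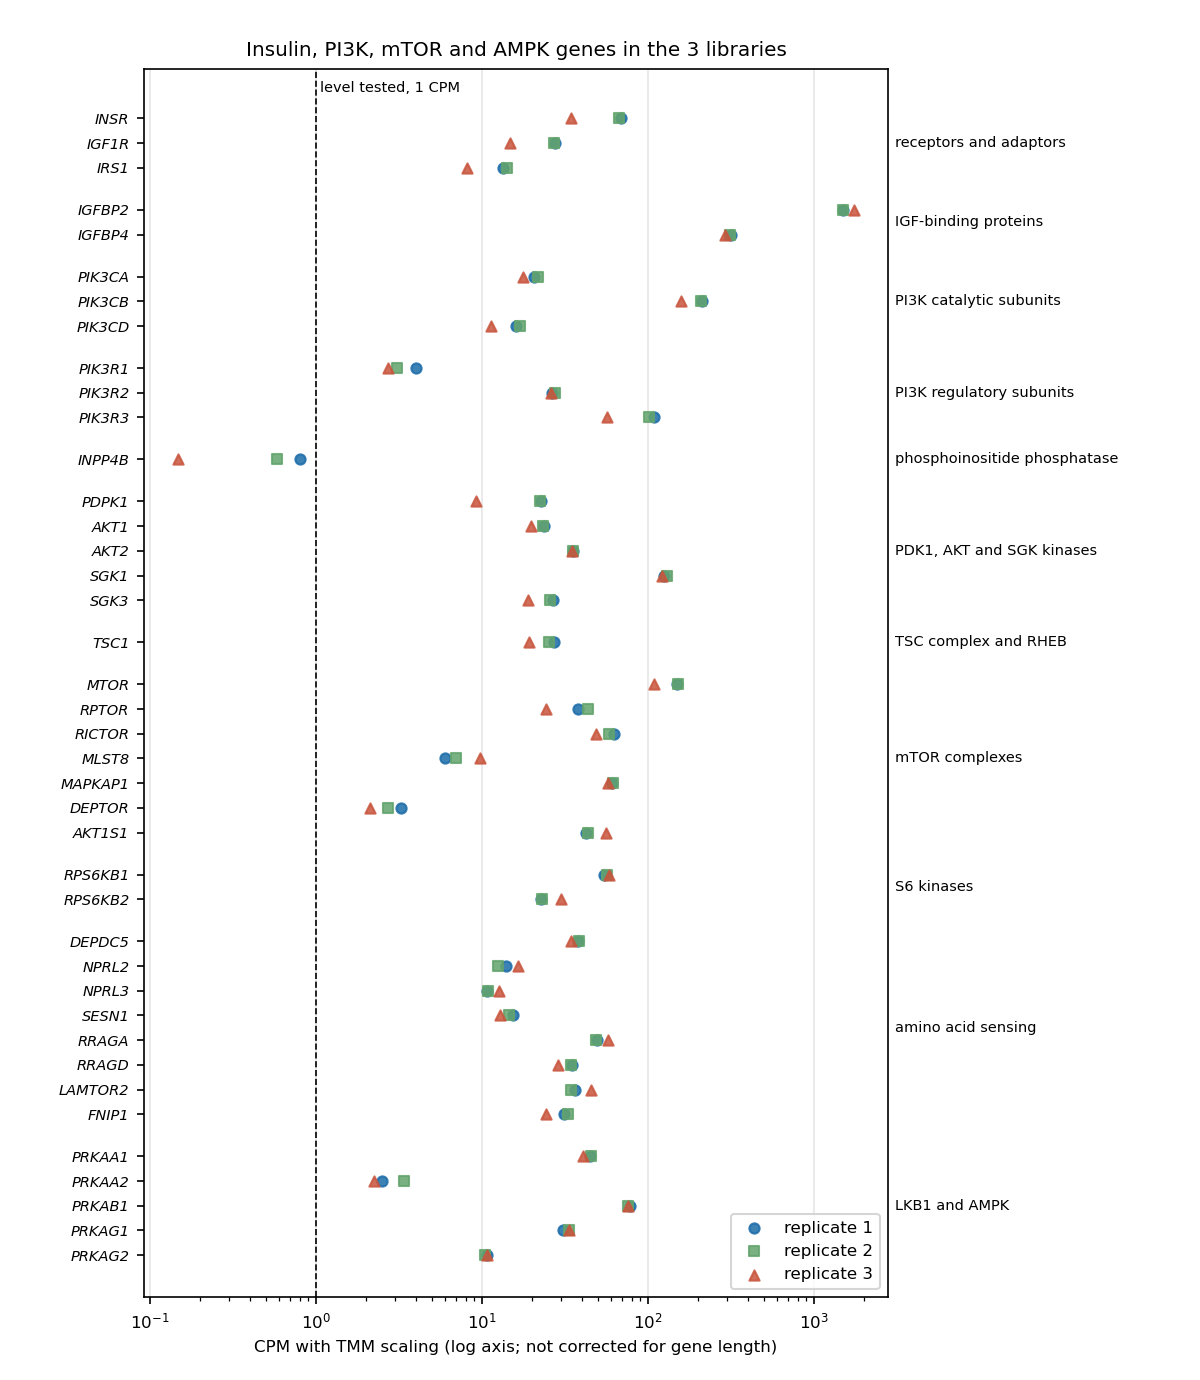
Level of the 40 pathway genes with counts in replicates 1, 2 and 3, in CPM with TMM scaling on a log axis, ordered by role; PIK3CG, with no counts, is left out. Every gene except INPP4B lies above the dashed line at 1 CPM in all 3 libraries. The triangles of replicate 3 lie at least 1.5-fold to the left of both other libraries for INSR, IGF1R, IRS1, PIK3R3, INPP4B, PDPK1 and RPTOR. They also lie to the left, but by less, for further genes such as MTOR and AKT1.

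Between libraries, the members called in at least 1 pair were INSR, IGF1R, IRS1, PIK3CD, PIK3R3, INPP4B, PDPK1, RPTOR, DEPTOR, MLST8 and PRKAA2. A member was called higher or lower in a pair of libraries at an adjusted p under 0.05 in the exact conditional binomial test of the pair's counts and a difference of at least 1.5-fold. This test compares libraries, takes counting error alone as the spread and says nothing of conditions. No member was called between replicates 1 and 2, where 0.499% of all genes tested were higher in replicate 2 and 0.743% lower. In replicate 3 against replicate 1, 8 members were lower and 1 was higher (20% and 1 of the 40 tested), while 10.3% of all genes tested were lower and 6.59% higher. In replicate 3 against replicate 2, 9 members were lower (22.5%) and none was higher, against 10.3% and 7.25% of all genes tested. The comparisons share replicate 3, and 7 members were lower in it than in both other libraries, namely INSR, IGF1R, IRS1, PIK3R3, INPP4B, PDPK1 and RPTOR. That is 17.5% of the 40 members, beside 8.39% of all genes tested and 12.7% of the 13719 genes that averaged 1 CPM or more. None was higher than in both, where 4.41% of all genes tested and 4.08% of those that averaged 1 CPM or more were. The members' share was thus near that of genes of like level, and it is given as a description of these libraries. It includes INPP4B, which averaged 0.51 CPM and so is outside the set of genes that gave 12.7%.

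The median log2 ratio of the 39 members that averaged 1 CPM or more was −0.17 in replicate 3 against replicate 1 and −0.17 against replicate 2. The same medians over all 13719 genes at that level were −0.05 and −0.05. Over the 12174 tested genes with a symbol, whatever their level, they were −0.09 and −0.09. The ratio was below 0 for 29 of the 39 members against replicate 1, for 7463 of the 13719 genes and for 6924 of the 12174. Regardless of direction, the median difference of the members was 0.28 log2 units in replicate 3 against replicate 1, and that of all genes at that level 0.29. Members were therefore about as far apart between libraries as other genes of their level, with more of them on the low side in replicate 3.

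**Figure D2:**
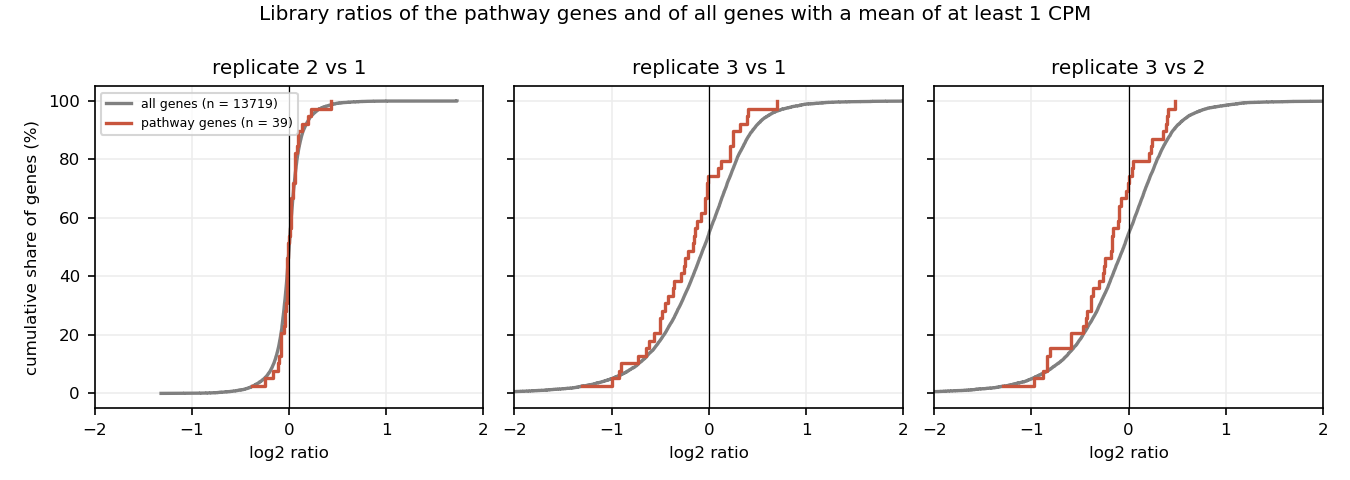
Cumulative share of genes by log2 ratio between 2 libraries, for the 39 pathway genes (red) and all 13719 genes (grey) that averaged 1 CPM or more, with 1 panel for each pair of libraries. The curves overlie each other for replicate 2 against 1; in both pairs with replicate 3 the red curve lies mostly to the left of the grey one, with a median of −0.17 against −0.05.

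Markers of other cell types moved with replicate 3 as well. Of the 4 matched trophectoderm markers, 3 were lower in replicate 3 than in both other libraries, and their summed level was 29.7, 30.6 and 13.0 CPM in replicates 1, 2 and 3, with CDX2 at 0 counts in replicate 3. KRT7, at 7.80, 8.24 and 9.86 CPM, had its highest value in replicate 3 and makes up most of the sum there, while GATA2 stood at 9.12, 9.77 and 0.69 CPM. Of the 5 matched endoderm markers, 3 were lower in replicate 3, the sum was 13.6, 16.1 and 4.90 CPM, and AFP had no counts in any library. GATA4, at 4.13, 4.62 and 3.87 CPM, makes up most of that sum in replicate 3, where GATA6 was at 0.49 CPM against 7.32 and 8.06 CPM. Of the 5 matched fibroblast markers, COL1A2 and DCN were lower in replicate 3 than in both others, and the sum was 677, 634 and 475 CPM. COL1A1, at 546, 516 and 404 CPM, makes up most of that sum and was not called in any pair, while DCN stood at 9.25, 9.71 and 0.98 CPM. The neuroectoderm markers PAX6 and NEUROG2 summed to 1.91, 1.62 and 2.08 CPM. In a bulk sample fewer cells of a type and less RNA per cell cannot be told apart, and the part of these cells in the differences of replicate 3 below was not tested.

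Among member roles with more than 1 matched gene, only the receptors and their adaptor had every gene called lower in replicate 3. All 3 matched members were above 1 CPM, and all 3 were lower in replicate 3 than in each other library. Of all genes tested 8.39% were, and 12.7% of those that averaged 1 CPM or more. The role is singled out by this result and holds only 3 matched genes, so the count describes these libraries. INSR, the insulin receptor (ENSCJAG00000016091), stood at 68.4, 67.3 and 34.4 CPM in replicates 1, 2 and 3. Replicates 1 and 2 were alike and replicate 3 was the low library. The ratio of replicate 3 to replicate 1 was 0.502, with a 95% counting interval of 0.472 to 0.534 (adjusted p = 1.78e-113, exact conditional binomial test), and that to replicate 2 was 0.510. IGF1R, which encodes the receptor of the insulin-like growth factors, stood at 27.6, 27.3 and 14.8 CPM. Its ratio of replicate 3 to replicate 1 was 0.536, with an interval of 0.487 to 0.590 (adjusted p = 2.48e-39, exact conditional binomial test). INSR and IGF1R thus moved by a like factor, and the change of their count ratio from replicate 1 to 3 was −0.10 log2 units, with a counting interval of −0.26 to 0.07. IRS1, the adaptor that links both receptors to PI3K, stood at 13.3, 14.2 and 8.07 CPM. Replicate 3 was again the low library, at 0.605 of replicate 1 and 0.569 of replicate 2. This does not extend to all such genes. In the wider list below, 2 of the 7 receptor and adaptor genes were lower in replicate 3 than in both others.

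The IGF-binding proteins are secreted and hold insulin-like growth factors outside the cell. IGFBP2 stood at 1498, 1489 and 1745 CPM in replicates 1, 2 and 3, or 1577 ± 145 CPM (SD, n = 3). It was the member with the most counts, between 71168 and 81893 in a library, and the summed level of all 41 members was 3380 to 3405 CPM. Replicate 3 stood at 1.17 times replicate 1, a difference beyond counting error (adjusted p = 1.86e-189, exact conditional binomial test) but under the 1.5-fold asked of a call. IGFBP4 stood at 316, 313 and 291 CPM. Both genes therefore kept their level within 1.5-fold in the libraries where the receptor genes did not.

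PI3K pairs a catalytic with a regulatory subunit. Among the catalytic genes, PIK3CA stood at 20.5, 21.8 and 17.7 CPM in replicates 1, 2 and 3, PIK3CB at 211, 207 and 158 CPM and PIK3CD, known mainly from white blood cells, at 15.9, 17.0 and 11.3 CPM. All 3 were above 1 CPM and had their lowest value in replicate 3. Only PIK3CD against replicate 2 passed the call, at 0.663 of it (interval 0.592 to 0.742, adjusted p = 1.03e-12, exact conditional binomial test), and it missed 1.5-fold when the libraries were scaled by DESeq2 size factors or by total counts. PIK3CG, the catalytic gene of blood cells that answers to G protein-coupled receptors, had 0 counts in all 3 libraries, which allows a level of up to 0.0573, 0.0546 and 0.0736 CPM, taken as 3 counts. Such limits and the counting intervals cover counting error only, since reads without molecular identifiers are not independent molecules.

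The regulatory subunit genes differed in how far they moved. PIK3R3 stood at 108, 102 and 56.8 CPM in replicates 1, 2 and 3, with replicate 3 at 0.526 of replicate 1 (interval 0.501 to 0.552, adjusted p = 2.54e-159, exact conditional binomial test) and at 0.558 of replicate 2. PIK3R2 stood at 26.4, 27.5 and 26.1 CPM, and no pair of libraries differed. PIK3R1, which encodes the most studied regulatory subunits, stood at 4.01, 3.09 and 2.72 CPM, from 111 to 210 counts, and no pair passed the 1.5-fold call. The balance within the group shifted with PIK3R3. The log2 count ratio of PIK3R2 to PIK3R3 was −2.03 and −1.89 in replicates 1 and 2 and −1.12 in replicate 3, a change of 0.91 from replicate 1 to 3 with a counting interval of 0.78 to 1.05. Gene length cancels in such a change. INPP4B encodes a phosphatase that removes a phosphate from a product of PI3K signalling, and it was the member with the fewest counts among those detected. It had 42, 32 and 6 counts, or 0.80, 0.58 and 0.15 CPM, and did not pass the test against 1 CPM with 3 libraries (adjusted p = 0.0773, edgeR quasi-likelihood). Without replicate 3 it was below 1 CPM (log2 level −0.53, adjusted p = 0.0287, edgeR), as it was without replicate 1 or replicate 2, with adjusted p of 0.0178 and 0.0443, in edgeR fits of 2 libraries that use the trend of all genes in place of the gene's own spread. Replicate 3 stood at 0.194 of replicate 1, with a wide interval of 0.0637 to 0.433.

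Of the kinases that PI3K controls, only PDPK1 was called between libraries. PDPK1, which encodes PDK1, the kinase that phosphorylates AKT, SGK and S6 kinases in their activation loop, stood at 22.7, 22.4 and 9.17 CPM in replicates 1, 2 and 3. Replicates 1 and 2 differed by 0.02 log2 units and replicate 3 was at 0.405 of replicate 1 (interval 0.359 to 0.454, adjusted p = 1.86e-58, exact conditional binomial test) and at 0.409 of replicate 2. Among members above 1 CPM no other gene had a coefficient of variation as large as its 42.7%. AKT1 stood at 23.7, 23.5 and 19.8 CPM and AKT2 at 35.4, 35.5 and 34.9 CPM. AKT2 was the steadiest member, with a coefficient of variation of 0.898%. The related kinase gene SGK1, known for its response to serum and steroid hormones, stood at 124, 130 and 121 CPM, and SGK3 at 26.6, 25.7 and 19.1 CPM. The log2 count ratio of SGK1 to SGK3 was 0.44 higher in replicate 3 than in replicate 1 (counting interval 0.30 to 0.58), and that of AKT1 to AKT2 was −0.23 from it (−0.40 to −0.07), both under 1.5-fold.

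**Figure D3:**
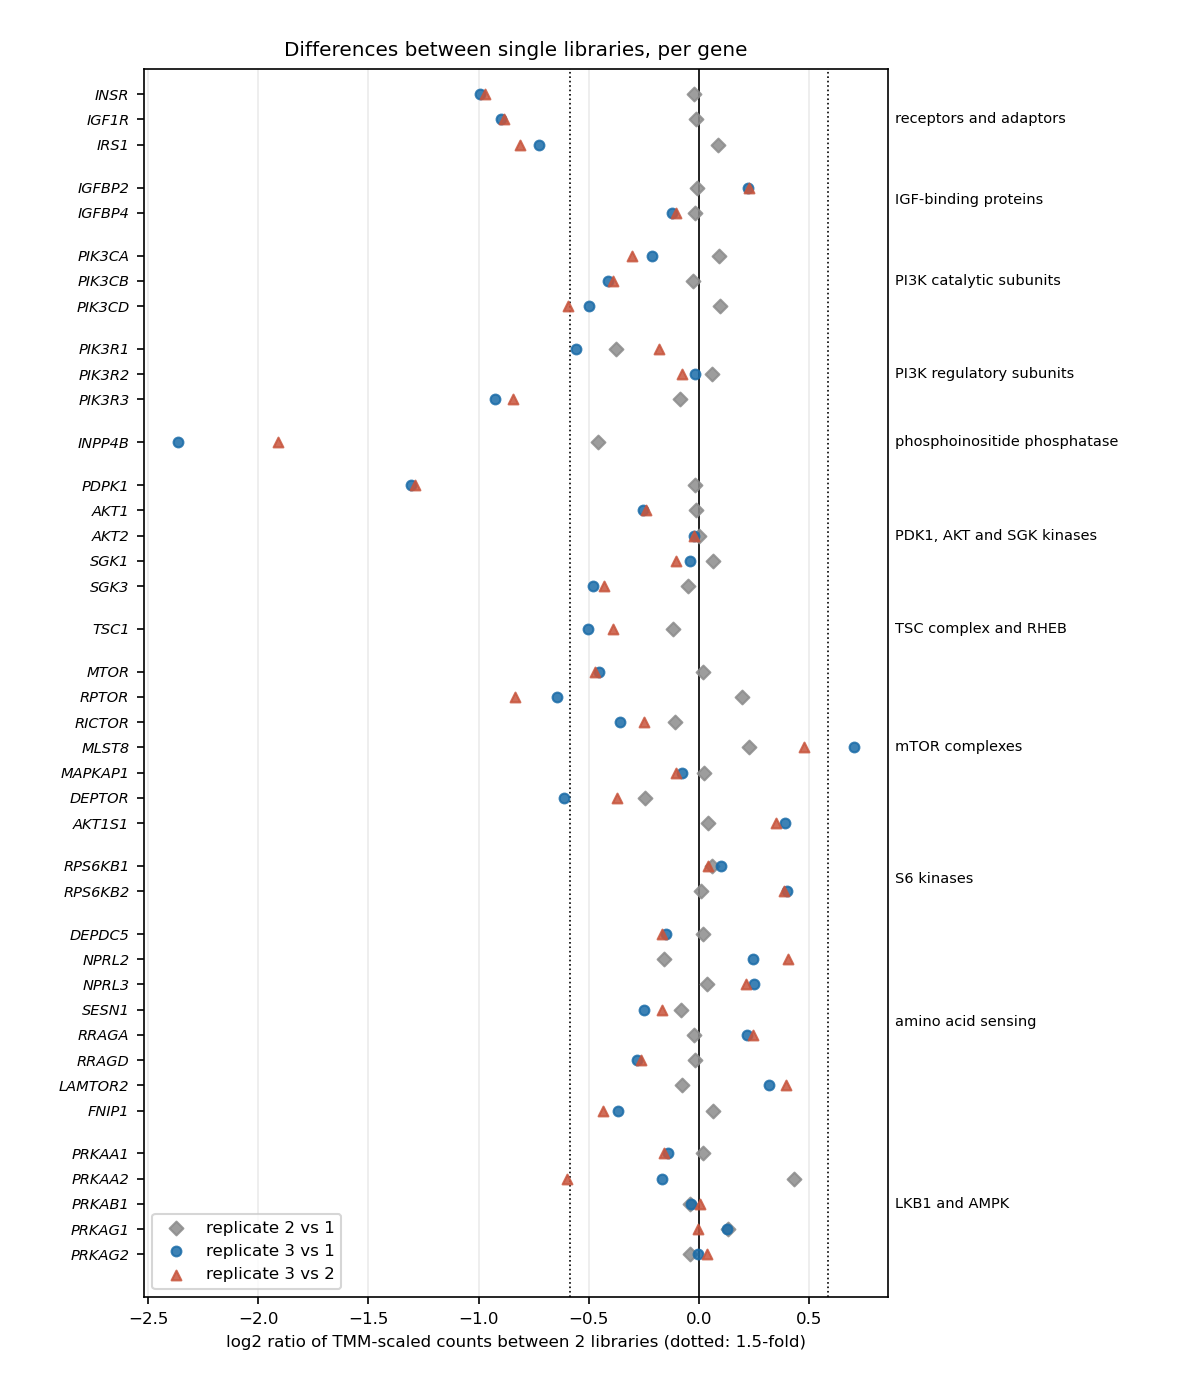
Log2 ratio of TMM-scaled counts between 2 libraries for each of the 40 pathway genes with counts, with replicate 2 against 1 in grey, 3 against 1 in blue and 3 against 2 in red; dotted lines mark 1.5-fold. Grey points stay within 1.5-fold for every gene, while INSR, IGF1R, IRS1, PIK3R3, INPP4B, PDPK1 and RPTOR lie beyond it on the low side in both pairs with replicate 3, and INPP4B is the farthest, at −2.37 and −1.91.

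Genes of mTOR itself and of its complexes were all above 1 CPM, and their changes were unequal. TSC1, which encodes a subunit of the TSC complex that holds mTOR complex 1 in check, stood at 27.3, 25.2 and 19.3 CPM in replicates 1, 2 and 3. MTOR stood at 149, 151 and 109 CPM, with replicate 3 at 0.731 of replicate 1 (interval 0.704 to 0.758, adjusted p = 1.07e-62, exact conditional binomial test), which is less than a 1.5-fold difference. RPTOR encodes raptor, the subunit that defines mTOR complex 1 and binds its substrates. It stood at 37.9, 43.4 and 24.3 CPM, and replicate 3 was the low library, at 0.641 of replicate 1 and 0.560 of replicate 2 (adjusted p = 1.74e-30 and 1.63e-55, exact conditional binomial test). RPTOR, with PIK3R3 and RICTOR, also differed between replicates 1 and 2 beyond counting error, by 0.19 log2 units (adjusted p = 0.00062, exact conditional binomial test).

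The genes RICTOR and MAPKAP1 of mTOR complex 2 were not called in any pair. RICTOR, which defines that complex, stood at 62.5, 58.1 and 48.8 CPM in the 3 libraries in order, and MAPKAP1, its partner SIN1, at 60.6, 61.7 and 57.4 CPM. The log2 count ratio of RPTOR to RICTOR was −0.72, −0.42 and −1.01 in the 3 libraries. Its change from replicate 2 to replicate 3 was close to 1.5-fold (log2 −0.59, counting interval −0.72 to −0.45), and that from replicate 1 to replicate 2 went the other way, at 0.30.

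MLST8, which encodes a subunit of both mTOR complexes, was the only member called higher in a pair with replicate 3. It stood at 5.98, 7.001 and 9.76 CPM in replicates 1, 2 and 3, from 313 to 398 counts. Replicate 3 was at 1.63 times replicate 1 (interval 1.40 to 1.90, adjusted p = 4.11e-10, exact conditional binomial test) and at 1.39 times replicate 2, which is under the call. AKT1S1, which encodes PRAS40, an inhibitor of mTOR complex 1 that AKT phosphorylates, stood at 42.6, 43.8 and 55.8 CPM and was also highest in replicate 3. The other inhibitor, DEPTOR, stood at 3.23, 2.73 and 2.11 CPM, and its call against replicate 1, at 0.654 of it, was lost with halved counts (adjusted p = 0.0648, exact conditional binomial test). MLST8 and AKT1S1 were thus highest in replicate 3, and DEPTOR was lowest.

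The S6 kinases are substrates of mTOR complex 1 that promote protein synthesis. RPS6KB1 stood at 54.4, 56.7 and 58.3 CPM in the 3 libraries in order, and RPS6KB2 at 22.7, 22.9 and 29.99 CPM. Neither was called in any pair. The log2 count ratio of RPS6KB1 to RPS6KB2 was −0.30 in replicate 3 relative to replicate 1, with a counting interval of −0.44 to −0.16.

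None of the 8 matched amino acid sensing members was called between libraries, and all 8 were above 1 CPM. So few genes cannot set this apart from all genes tested, of which 8.39% were lower in replicate 3 than in both others. In the wider list below, 4 of 17 genes of this role were. The summed level of the 8 members was 230, 227 and 232 CPM in replicates 1, 2 and 3. The GATOR1 complex turns the Rag GTPases off when amino acids are short. Its genes DEPDC5, NPRL2 and NPRL3 stood at 36.8 ± 2.29, 14.3 ± 2.05 and 11.4 ± 1.10 CPM (SD, n = 3). DEPDC5 had its lowest value in replicate 3, and NPRL2 and NPRL3 had their highest value there. SESN1, a leucine-sensing and p53-responsive gene, stood at 15.3, 14.5 and 12.9 CPM. The Rag GTPase genes RRAGA and RRAGD stood at 52.0 ± 4.96 and 32.7 ± 3.44 CPM, with replicate 3 at 1.16 and 0.823 times replicate 1. LAMTOR2, a subunit of the Ragulator that anchors the Rags at the lysosome, stood at 36.2, 34.3 and 45.1 CPM, and FNIP1, the partner of folliculin, at 31.4, 32.8 and 24.3 CPM. RRAGA and LAMTOR2 were thus highest in replicate 3, and RRAGD and FNIP1 lowest, each by less than 1.5-fold.

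Among the roles with more than 2 matched members, the AMPK members were the steadiest. AMPK consists of a catalytic alpha, a scaffolding beta and a nucleotide-binding gamma subunit. All 5 matched members were above 1 CPM, and their summed level was 166, 168 and 163 CPM in replicates 1, 2 and 3. The median coefficient of variation of the group was 5.13%, beside 14.7% over all 40 members with counts and 12.8% over the 13719 genes that averaged 1 CPM or more. PRKAA1, an alpha subunit gene, stood at 44.6, 45.2 and 40.5 CPM. PRKAA2, the other alpha subunit gene, known from skeletal muscle, had 91 to 186 counts and stood at 2.504, 3.38 and 2.23 CPM. It was called lower in replicate 3 than in replicate 2, at 0.661 of it (interval 0.508 to 0.852, adjusted p = 0.00272, exact conditional binomial test), but its level in replicate 1 was close to that in replicate 3, and the call was lost with DESeq2 size factors and with halved counts. The beta subunit gene PRKAB1 stood at 77.6, 75.5 and 75.8 CPM and the gamma subunit genes PRKAG1 and PRKAG2 at 32.6 ± 1.67 and 10.7 ± 0.166 CPM (SD, n = 3). Replicate 3 lay between the other libraries for PRKAB1, PRKAG1 and PRKAG2. PRKAG3, another gamma subunit gene, is in the wider list below and was not steady. It had 22, 14 and 57 counts and a coefficient of variation of 89.4%, and was not distinguished from 1 CPM.

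**Figure D4:**
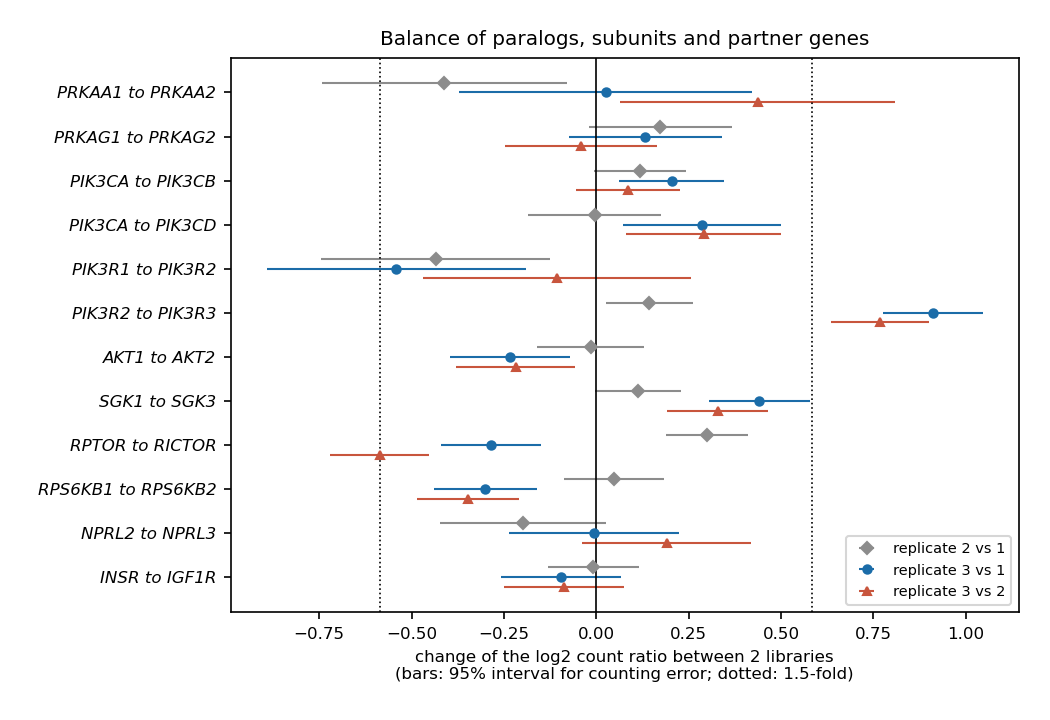
Change of the log2 count ratio of 12 pairs of paralogs, subunits or partner genes between 2 libraries, with replicate 2 against 1 in grey, 3 against 1 in blue and 3 against 2 in red; bars are 95% intervals for counting error and dotted lines mark 1.5-fold. PIK3R2 to PIK3R3 is beyond 1.5-fold in both pairs with replicate 3, at 0.91 and 0.77, and RPTOR to RICTOR is at the line against replicate 2, at −0.59.

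A wider list held 73 other genes of these pathways, of which 56 could be matched. Its shares above 1 CPM and lower in replicate 3 were like those of the members, but single roles differed. Of the 55 with counts, 51 were called above 1 CPM, which is 92.7%, PIK3R6 was below it, and INSRR, SGK2 and PRKAG3 were not distinguished (edgeR quasi-likelihood). INS, the insulin gene, had no counts. By the naming rule, which orders by mean CPM and does not rank levels between genes, those at the top were SHC1, an adaptor of receptor tyrosine kinases, at 383 ± 3.81 CPM, EIF4E, the cap-binding translation factor, at 189 ± 18.1 CPM, and ACACA, an AMPK substrate that makes malonyl-CoA, at 172 ± 69.9 CPM (SD, n = 3). Those at the bottom among genes with counts were PIK3R6, PRKAG3 and SGK2, at 0.41 ± 0.17, 0.69 ± 0.62 and 0.77 ± 0.22 CPM. TFEB, a transcription factor of lysosomal genes that mTOR complex 1 restrains, had 52 to 77 counts, and its call above 1 CPM was lost with DESeq2 (adjusted p = 0.0774) and when replicate 1 or replicate 2 was left out (edgeR adjusted p = 0.224 and 0.181). The call of PIK3R6 was lost without replicate 2 (adjusted p = 0.0511, edgeR), and without replicate 3 PRKAG3 and SGK2 were below 1 CPM.

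Between libraries, 12 of these 55 genes (21.8%) were lower in replicate 3 than in both others, beside 8.39% of all genes tested and 12.7% of those that averaged 1 CPM or more, and PRKAG3 was higher than in both, with 22, 14 and 57 counts. Each of the 12 was chosen for its difference, so their values describe these libraries. The ligand gene IGF2 had 234, 272 and 57 counts in replicates 1, 2 and 3, with replicate 3 at 0.314 of replicate 1. IGF2R, which takes up and clears that ligand, stood at 175, 179 and 95.4 CPM, and IRS4, another adaptor of the insulin receptor, at 12.8, 13.5 and 4.90 CPM. The lipid phosphatase genes INPP5D and INPP4A stood at 37.4, 39.2 and 20.7 CPM and at 25.2, 24.9 and 14.3 CPM. FOXO3, a transcription factor that AKT keeps out of the nucleus, stood at 11.9, 12.7 and 5.17 CPM. The amino acid sensing genes SESN2, SESN3, CASTOR2 and FNIP2 were lower in replicate 3 as well, at 33.4, 21.3, 2.21 and 1.99 CPM there against 61.6, 47.8, 4.86 and 5.66 CPM in replicate 1. The remaining 2 were CAB39, a partner of LKB1, at 33.7, 34.2 and 18.1 CPM, and ACACA at 211, 212 and 90.8 CPM. The other 13 matched amino acid sensing genes were not called. In this role, 4 of 17 genes of the wider list were thus lower than in both others, and none of the 8 members was. The role of LKB1 partners, AMPK kinases and targets had a median coefficient of variation of 25.6%, beside 5.13% for the AMPK members.

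Some counts may mix genes. In the RefSeq gene table of another assembly, 40 of the 41 matched members were found, and 14 of them overlap another protein-coding gene. These include IGF1R with SYNM, AKT1 with SIVA1, MTOR with ANGPTL7, MLST8 with BRICD5, DEPTOR with COL14A1, DEPDC5 with PRR14L, NPRL2 with CYB561D2, NPRL3 with MPG and SESN1 with ARMC2. INSR, PIK3R1, INPP4B, PDPK1 and SGK3 overlap genes known only by a locus identifier. INSR, IGF1R, INPP4B and PDPK1 are thus members with an overlap that were lower in replicate 3 than in both others. The strand setting of the counting is not given in the sources used here, so reads of such neighbours on opposite strands cannot be told apart, nor is it known how reads shared with pseudogenes were counted.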

How the data were processed

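The authors deposited 1 file for each library, with raw counts for Ensembl gene IDs that they did not normalize. Per the submitters' processing notes, the tools were featureCounts 1.5.2, STAR 2.5.3a and Trim Galore 0.4.0. Not given in the sources used here are the annotation release, genome build and strand setting and how multi-mapped reads were treated. Symbols were taken from a gene name table and matched 12660 of 30811 IDs. RNA was extracted as total RNA with a column kit, per the labels' protocols.

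Counts were scaled with TMM factors (edgeR 4.0.16, R 4.3.3). The 23432 genes with any count were tested against 1 CPM by edgeR's quasi-likelihood F, from the deviances of a model holding just the intercept, with trended dispersion. Pairs of libraries were compared by a two-sided exact conditional binomial test, Benjamini-Hochberg adjusted over the genes tested, with a minimum of 1.5-fold. Log2 ratios had a prior count of 0.5. Both tests were run on simulated data, with a fixed dispersion for the level test and Poisson counts for the pair test. The latter cannot show how the pair test behaves where libraries vary beyond counting error. DESeq2 1.42.0 was an alternative. The RefSeq table served for names and overlaps only. A planned test of levels between paralogs needed gene lengths, so only changes of their ratio between libraries are given. All matched members are named. Of the other pathway genes and of each marker list, the rule named the 3 of highest and lowest mean CPM, those without counts and those called in 1 library against both others; the markers are given as sums and counts. A gene of the wider pathway list is not reported here. Members and lists were chosen with earlier results of these data known. Figures were drawn with matplotlib 3.10.9.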

Additional observations from a re-analysis of the deposited data

How the results depend on the processing

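The 39 members above 1 CPM numbered 39 under all 9 alternatives. Members below 1 CPM numbered 0 as reported and 1, INPP4B, with replicates 1 and 2 summed, and again 1 in each fit that left out a library. The number was 0 under the other settings, but INPP4B was not tested in the fit limited to genes that pass edgeR's expression filter. These fits on 2 libraries used the trend of all genes in place of a gene's own spread. The counts between libraries moved with the minimum fold, which by its construction admits or removes genes. With no minimum fold, 1 member was higher and 2 lower in replicate 2 against replicate 1, 10 higher and 23 lower in replicate 3 against replicate 1, and 8 higher and 23 lower in replicate 3 against replicate 2. With a 2-fold minimum, 0 members were higher and 2 lower in replicate 3 against replicate 1, and 2 lower against replicate 2. The share of all genes called at these other minimums is not given, so these counts say nothing particular to the members. No called direction reversed under another scaling, filter, fold or halved counts. With a prior count of 2, 1 of the paralog and subunit ratios changed by 1.5-fold from replicate 2 to 3, in place of 2, since RPTOR to RICTOR lies at that limit. Length scaling cancels in these changes, and leaving out a library leaves no other value for a pair of libraries, so neither was run for them. No paired analysis was possible because the study has a single group. INPP4B, PIK3R1, DEPTOR and PRKAA2, with at most 210 counts in a library, are the members for which depth limits the precision most. The alternatives for the wider pathway list were chosen after seeing the data.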
